A study of Rattus norvegicus with 12 samples.

Results

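The genes described here are 40 listed genes of DNA replication (S phase) and of cell division (mitosis), taken as rows of a table of read counts for 16511 rat genes and followed in 12 libraries of whole mammary gland. A row was found for 37 of the 40. Mki67, the standard marker antigen of cycling cells, Birc5, the survivin subunit of the chromosomal passenger complex, and Bub1b, a spindle checkpoint protein, have no row and were not analysed here. Of the 37, Cdc45, a part of the replicative helicase, was listed at 0 in every library, and a gene without RNA and a gene the counting missed cannot be told apart. Orc1, with 2 to 14 counts in a library, and Rrm1, with 0 to 19, were below the filter on low counts. The other 34 were tested, and they had 174 to 3132 counts in all libraries together.

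Each library comes from a single snap-frozen gland of 1 offspring of a separate litter at PND21 (postnatal day 21), around weaning. In 6 libraries the label gives the diet of the prenatal exposure as High fat butter (HFB), and in the other 6 as Control (CTL), an AIN diet. The paper used Sprague-Dawley rats and took female offspring, while the labels name neither strain nor sex. The design text starts the diets in gestation and gives more than a single end for them, the paper has them end at birth, and the window for these glands was not settled. Bisphenol A is not named in the labels. The paper states that its sequencing of microdissected epithelium, high butterfat alone against high butterfat with bisphenol A, was deposited in this series. The labels instead describe whole gland of the HFB and control diets, and this difference was not settled. No library labelled as microdissected epithelium was analysed here. Libraries are named by diet and library number, HFB 1 to 6 and control 7 to 11 and 14. They held 2320267 to 2944680 counts each, so that 3 counts, taken as the smallest detectable level, stand for 0.949 CPM in control 7 to 1.30 CPM in control 9 after scaling.

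A cell copies its DNA only after origins of replication have been licensed by Orc, Cdc6 and Cdt1, and cyclin E and cyclin A with Cdk2 then start and sustain replication. E2f transcription factors switch on many of the replication genes at the passage from G1 into S phase. Genes of mitosis, among them the B cyclins, Cdk1 and the spindle motors, peak later, in G2 and M, and many of them are held down in resting cells through promoter elements called CHR. In the gland around weaning, division is densest in the terminal end buds, the growing tips of the ducts, and fat, stromal and immune cells of the pad also divide.

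The label of whole mammary gland was set against markers of its cells. Of 20 listed epithelial genes 18 have a row, and their summed level ran from 178 CPM in HFB 1 to 999.8 CPM in HFB 6. Krt8, a keratin of luminal cells, had the highest CPM of them and was counted in every library. Cldn3 was listed at 0 in every library, Pgr had under 3 counts in 11 libraries, Elf3 in 3, Prlr in 2 and Esr1 in 1. All 10 adipocyte markers have a row, led by Fabp4, and summed to between 18120 CPM in control 14 and 45160 CPM in control 8. Genes of epithelium and of fat are thus counted in each library.

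No member passed the adjusted threshold. By edgeR's quasi-likelihood test, with p adjusted after Benjamini-Hochberg over the 9382 genes tested, 0 genes had an adjusted p under 0.05, or 0% of them, and 220 genes (2.34%) had an unadjusted p under 0.05. DESeq2 and limma also gave 0 genes at the adjusted threshold, and 271 and 613 at the unadjusted one. Of the 34 members tested, 3 had an unadjusted p under 0.05 in edgeR, 3 in DESeq2 and 4 in limma. All 3 of edgeR were lower with HFB, a direction in which 1.04% of all genes tested were called.

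These 3 members were Kif11, the motor that pushes spindle poles apart, and Ccnb1 and Ccnb2, the B cyclins that activate Cdk1 at entry into mitosis. A log2 fold change (HFB over control) below 0 was found for 26 of the 34 members, against 50% of all genes tested. The members' median was -0.13, against 0.0002 over all genes tested. The number lower was 16 without control 14, 15 with the epithelial and 13 with the erythroid score as a covariate, and the median was then 0.03, 0.02 and 0.04. The lowest value was -0.56 and the highest 0.43, and in 20 of the 34 the log2 fold change was smaller than its SE. The diets overlapped in every member, so that 0 members were apart, while 0.107% of all genes tested were.

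**Figure D1:**
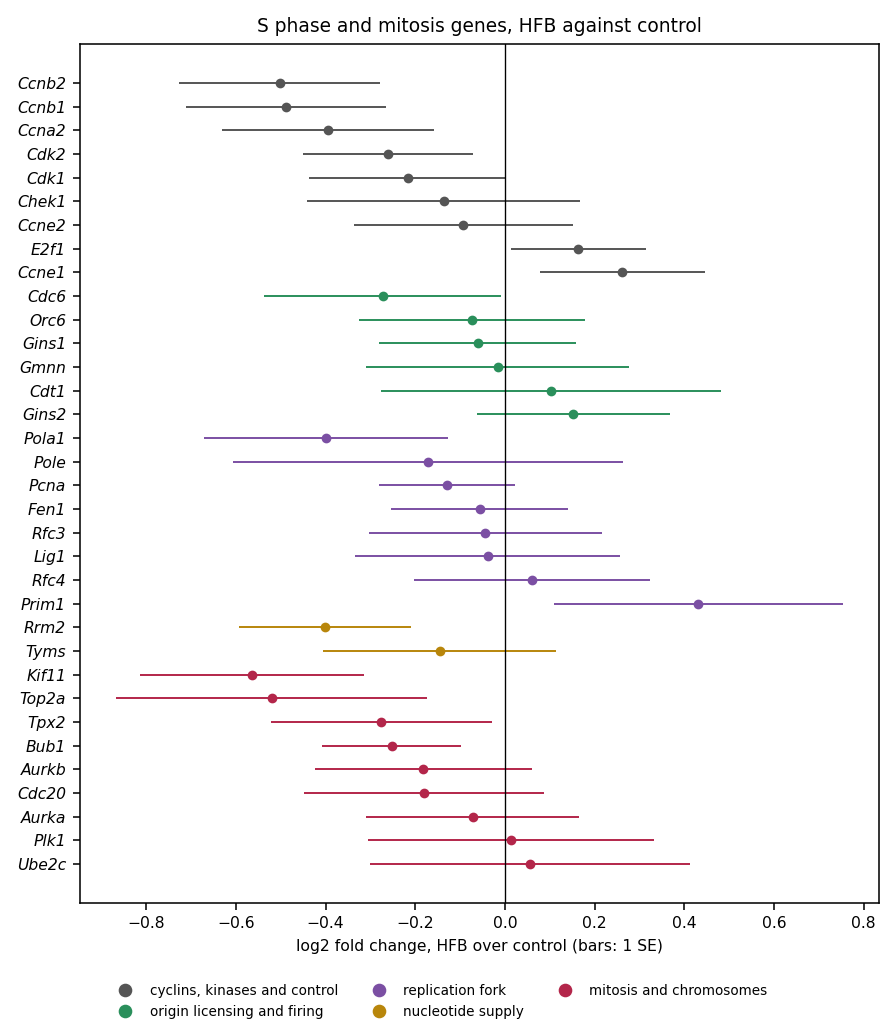
Log2 fold change, HFB over control, of the 34 genes tested, grouped by role, with bars of 1 SE from edgeR (6 libraries per diet). Kif11, Top2a, Ccnb2 and Ccnb1 lie lowest, Prim1 and Ccne1 highest, and 26 of the 34 points lie below 0.

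In 7 members all 6 HFB libraries lay below the control median, as they did in 3.51% of all genes tested. These were Ccna2, Ccnb1, Ccnb2, Cdc6, Rrm2, Bub1 and Kif11. The reverse, all 6 HFB libraries above the control median, was seen in 1 member, Gins2, and in 3.01% of all genes tested.

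The counts over the members depended on single libraries. Control 9 had the lowest level of its diet in 25 of the 34 members and control 14 the highest in 24. How often each was lowest or highest over all genes is not given here. Control 14 and HFB 6 also stood apart over the genes counted. Between control 14 and another control the chi-square per degree of freedom was 48.5 to 65.1, against 6.69 to 29.0 between the others. For HFB 6 it was 53.4 to 100.9, against 9.66 to 37.2 between the other HFB libraries. Leaving out control 9 gave 30 members lower with HFB and 6 with an unadjusted p under 0.05, against 1.9% of all genes in that fit. Without control 14 the number lower was 16, the median was 0.03, and the 2 members with an unadjusted p under 0.05, Gins2 and Prim1, were both higher with HFB, where 6.2% of all genes were called. Without HFB 3, which was lowest of its diet in 17 members, 14 members were higher with HFB, and without HFB 6, 5 were. The number with an unadjusted p under 0.05 was 5 without HFB 1, against 3.99% of all genes in that fit, and 1 without HFB 4, where 1 of 34 is 2.94% and all genes had 4.12%. It was 2 without HFB 5, against 1.42%, and 4 without HFB 6, against 2.85%. It was 0 without HFB 2, HFB 3, control 7, control 8, control 10 or control 11, where 1.44% to 2.85% of all genes were called.

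**Figure D2:**
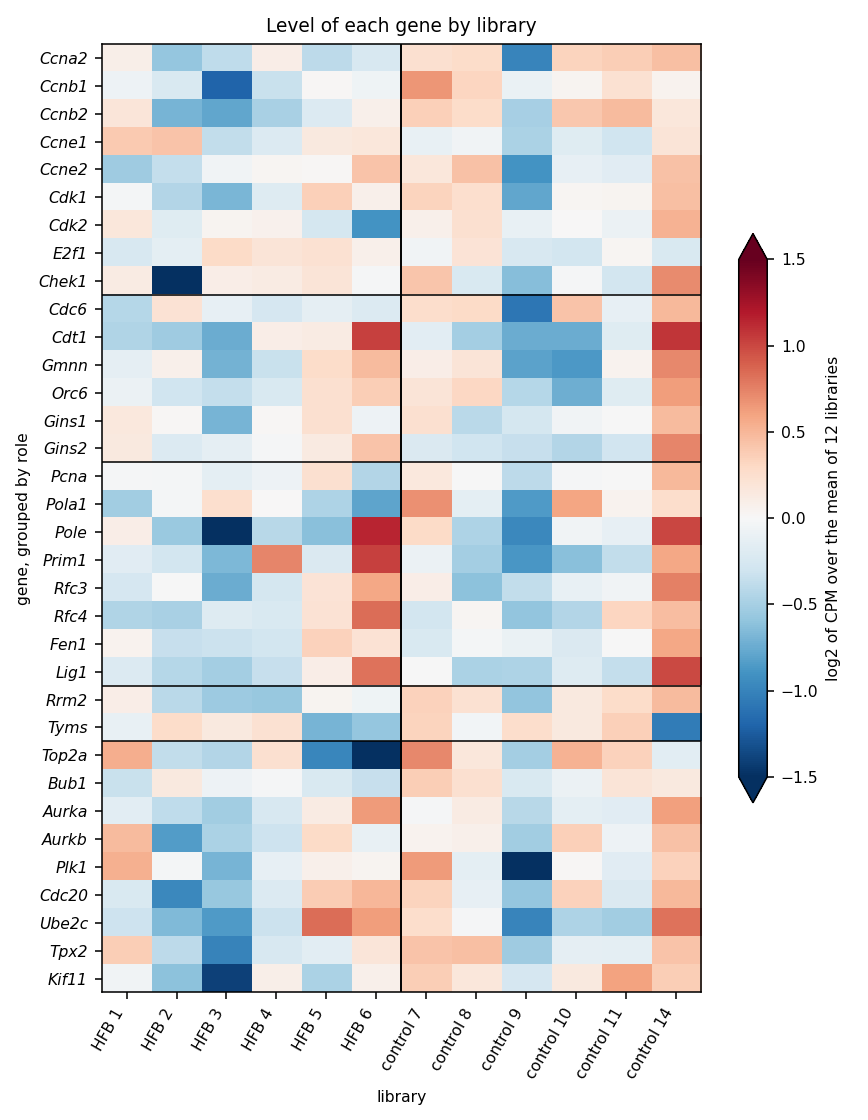
Level of each of the 34 genes tested in each library, as the log2 of its CPM over its mean in all 12 libraries, with genes in rows grouped by role and HFB libraries to the left of the line. Control 14 stands out as high in the licensing and fork genes, HFB 6 as high in several of them, and control 9 as low in most genes.

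Cyclins, kinases and their control were the first of 5 role groups, with 9 members, of which 7 were lower with HFB. The group's median log2 fold change was -0.22. Ccnb1 was at 5.46, 11.3 and 12.8 CPM (lowest, median and highest) in the 6 HFB libraries and at 11.7, 13.9 and 19.9 CPM in the 6 controls. HFB 3 was the lowest library and control 7 the highest, and the 3 highest HFB libraries reached into the control range. The fold change of HFB over control was 0.71, and on the log2 scale it was -0.49 with an SE of 0.22 (edgeR, adjusted p = 0.999). With the erythroid or the epithelial score as a covariate it was -0.39 or -0.43, without an unadjusted p under 0.05.

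Ccnb2 had 9.36, 12.7 and 18.1 CPM with HFB, and 11.3, 19.96 and 22.3 CPM with control. Without control 9, which at 11.3 CPM lay far under the other controls, the lowest control was control 14 at 17.96 CPM, and only HFB 1 was above it. The log2 fold change was -0.50 with an SE of 0.22 (edgeR, adjusted p = 0.999). It was -0.61 without control 9, and -0.23 with the erythroid score as a covariate, where the unadjusted p was not under 0.05.

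Ccna2, the A cyclin of S and G2 phase, was at 9.85, 11.9 and 15.8 CPM with HFB and at 7.39, 18.2 and 20.1 CPM with control. The other 5 controls, from 17.4 CPM upward, lay above every HFB library, and control 9 lay below them all. The log2 fold change was -0.39 (SE 0.24) with control 9 and -0.54 without it, and -0.07 with the erythroid score as a covariate. None passed the adjusted threshold.

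Cdk1, the kinase of mitotic entry, had 24.2, 36.1 and 49.9 CPM with HFB and 22.6, 43.1 and 53.2 CPM with control. Its lowest libraries were control 9 and HFB 3, and its log2 fold change was -0.22 with an SE of 0.22, -0.34 without control 9 and 0.04 with the erythroid score as a covariate. Cdk2, the partner of cyclins E and A, stood at -0.26 (SE 0.19), and between -0.33 and -0.05 over the 23 alternatives. It was lowest in HFB 6, at 15.6 CPM against 24.4 CPM or more elsewhere, and highest in control 14, at 41.9 CPM. Chek1, the kinase that halts the cycle at stalled forks, was lowest in HFB 2, at 3.43 CPM.

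Of the members that act at the passage into S phase, Ccne1 and E2f1 were not lower with HFB. Ccne1, a cyclin E, had 14.04, 20.3 and 24.4 CPM with HFB and 13.0, 16.4 and 20.8 CPM with control. It was highest in HFB 2 and HFB 1, and its log2 fold change was 0.26 with an SE of 0.18. E2f1, the activating E2f factor, had 21.0, 27.2 and 30.0 CPM with HFB and 20.4, 22.4 and 28.5 CPM with control. With a log2 fold change of 0.16 (SE 0.15) it varied least of all members around its fitted mean, at a biological coefficient of variation (BCV) of 0.197. Ccne2, the other cyclin E, was at -0.09.

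**Figure D3:**
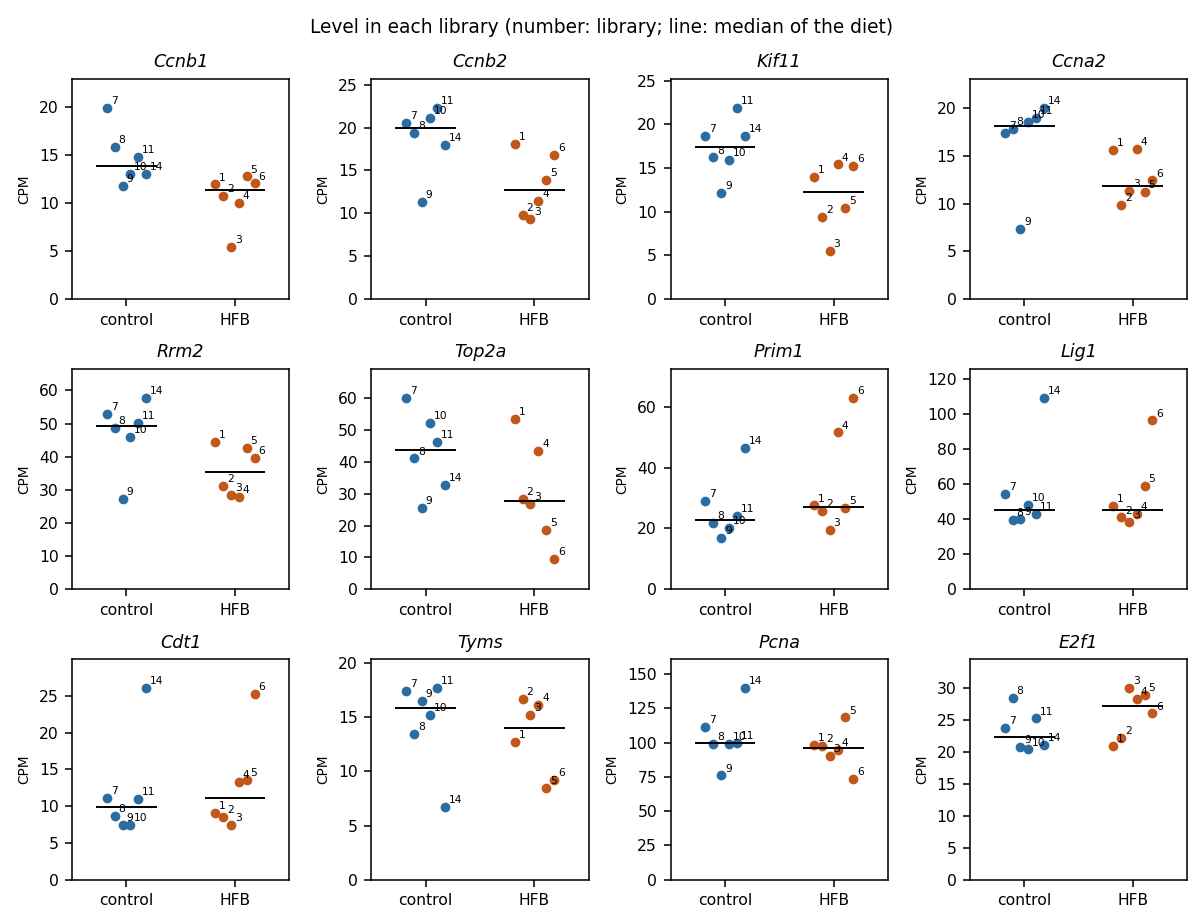
CPM of 12 of the genes in each library, with the library number beside each point and the median of each diet as a line (6 libraries per diet). For Ccna2, Ccnb2 and Rrm2 all controls but control 9 lie toward the top, whereas for Lig1 and Cdt1 libraries HFB 6 and control 14 stand above all others.

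Origin licensing and firing had 6 members tested, of which 4 were lower with HFB, at a median log2 fold change of -0.04. Their summed level in a library, with Orc1 included, was 62.0, 76.9 and 108 CPM with HFB and 56.1, 73.0 and 134 CPM with control. The 2 highest libraries were control 14 and HFB 6. Cdt1, which loads the helicase, had 25.3 CPM in HFB 6 and 26.1 CPM in control 14, and at most 13.5 CPM in any other library. Gmnn, which holds Cdt1 in check, Orc6 and Gins2, a part of the helicase, were likewise highest of their diet in these libraries. Control 14 was highest of its diet in all 6 members, and HFB 6 in 4.

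Gins2 was at 24.4, 29.4 and 38.1 CPM with HFB and at 20.8, 23.1 and 46.8 CPM with control. Apart from control 14, the controls lay at 24.36 CPM or less, under every HFB library, and control 14 lay above them all. Its log2 fold change was 0.15 (SE 0.21), and 0.40 without control 14. Gins1 stood at -0.06. Cdc6, a licensing factor with 6 to 22 counts in a library, stood at -0.27 (SE 0.26).

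Of the 8 genes of the replication fork 6 were lower with HFB, at a median log2 fold change of -0.05. Pcna, the sliding clamp of the polymerases, had 73.4, 96.1 and 118 CPM with HFB and 76.1, 99.5 and 140 CPM with control. HFB 6 was its lowest library and control 14 its highest, which places these libraries at opposite ends. The log2 fold change was -0.13 with an SE of 0.15, and 0.04 without both.

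Prim1, the primase that lays down RNA primers, was at 19.5, 27.1 and 62.9 CPM with HFB and at 17.0, 22.9 and 46.5 CPM with control. HFB 6, HFB 4 and control 14 stood above the other 9 libraries, which lay at 29.1 CPM or less. The log2 fold change of 0.43 (SE 0.32) was the highest of all members tested, and it fell short of the adjusted threshold. It was 0.19 without HFB 6, 0.69 without control 14 and 0.70 with the epithelial score as a covariate.

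Lig1, the ligase that joins Okazaki fragments, had 38.6, 45.5 and 96.6 CPM with HFB and 39.5, 45.6 and 109.5 CPM with control, so that the medians of the diets almost met. Its level in HFB 6 was 2.23 times, and in control 14 2.55 times, the median of the other libraries of the same diet. For Pole, the leading-strand polymerase, these ratios were 3.25 and 2.19, and for Rfc3, a part of the clamp loader, 1.79 and 1.82. Pola1, the polymerase that extends the primers, ran the other way in HFB 6, with a ratio of 0.589, and its log2 fold change was -0.40 (SE 0.27). Rfc4 stood at 0.06 and Fen1, the flap nuclease, at -0.06.

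Nucleotide supply had 2 members tested, both lower with HFB. Rrm2, the S phase subunit of ribonucleotide reductase, was at 27.9, 35.5 and 44.4 CPM with HFB and at 27.4, 49.4 and 57.8 CPM with control. The 5 controls other than control 9 lay at 46.0 CPM or above, over every HFB library. The log2 fold change was -0.40 with an SE of 0.19 (edgeR, adjusted p = 0.999), -0.51 without control 9 and -0.17 with the erythroid score as a covariate. Tyms, which makes thymidylate, stood at -0.15 (SE 0.26) and was lowest in control 14, HFB 5 and HFB 6, at 6.69, 8.51 and 9.22 CPM. Rrm1, the other reductase subunit, had 0 counts in HFB 6, and at its depth a level under 3 counts could not be detected.

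Mitosis and chromosomes had 9 members tested, of which 7 were lower with HFB, at a median log2 fold change of -0.18. Kif11 was at 5.46, 12.2 and 15.4 CPM with HFB and at 12.2, 17.4 and 21.9 CPM with control. Its lowest libraries were HFB 3, HFB 2 and HFB 5, while control 9 was the lowest control and lay within the HFB range. At -0.56 (SE 0.25, a fold of 0.68) it had the lowest log2 fold change of the members tested (edgeR, adjusted p = 0.999). It was -0.39 with the erythroid and -0.45 with the epithelial score as a covariate, and the unadjusted p was then not under 0.05.

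Top2a, the topoisomerase that untangles chromosomes before they part, had 9.62, 27.6 and 53.5 CPM with HFB and 25.7, 43.7 and 60.1 CPM with control. HFB 6, the lowest library, and HFB 1, the highest HFB library, differed by more than the medians of the diets did. The log2 fold change was -0.52 with an SE of 0.35, -0.34 without HFB 6 and -0.27 with the erythroid score as a covariate. It was -0.76 without HFB 1, where the unadjusted p was under 0.05. With the epithelial score as a covariate it was -0.77, and the unadjusted p was not under 0.05. The BCV of Top2a was 0.423, among the larger of the members. In HFB 6 its level was 0.34 times the median of the other HFB libraries, in the library where Lig1, Pole, Prim1 and Cdt1 were highest of their diet.

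Bub1, a spindle checkpoint kinase, varied little, with a BCV of 0.199, and stood at -0.25 (SE 0.16). Tpx2, which nucleates spindle microtubules, stood at -0.28 (SE 0.25), Aurkb at -0.18, Cdc20 at -0.18 and Aurka at -0.07. The Aurora kinases Aurka and Aurkb act on the spindle and at centromeres, and Cdc20 activates the complex that ends mitosis. Plk1, a kinase of the mitotic spindle, at 0.01 and Ube2c, the ubiquitin-conjugating enzyme of that complex, at 0.06 were the 2 members of the group above 0. In control 9 all 9 members of the group were at the lowest level of the diet. There Plk1 had 3.48 CPM, or 8 counts, against at least 10.1 CPM in the other controls.

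Summed over all 37 rows, the level was 741 ± 107.5 CPM (SD, n = 6) with HFB and 811 ± 178 CPM (SD, n = 6) with control, a difference within the spread between libraries. The lowest libraries were control 9 at 555 CPM and HFB 3 at 595 CPM, and the highest was control 14 at 1097 CPM. For the mitosis group the sums were 165 ± 31.4 and 196 ± 41.6 CPM (SD, n = 6 each), for the fork 277 ± 54.7 and 282 ± 82.9 CPM (SD, n = 6 each). The spread of a member within a diet had a median coefficient of variation of 27.0% with HFB and 28.2% with control, where all genes tested had 30.3% and 24.1%. In a whole gland, fewer dividing cells and less RNA of these genes in each cell cannot be told apart.

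Libraries that stood apart in these genes also differed in markers of other cells. The 18 epithelial genes summed to 178, 271, 249, 562, 837 and 999.8 CPM in HFB 1 to HFB 6. In controls 7, 8, 9, 10, 11 and 14 the sums were 699.5, 506, 269, 503, 648 and 994.5 CPM. Control 9, HFB 2 and HFB 3, the 3 libraries with the lowest sum over the members, were among the 4 lowest in epithelial genes, and HFB 1 was the lowest. Of the 13 epithelial genes tested, 12 were lower with HFB, with a median log2 fold change of -0.21 and 0 with an unadjusted p under 0.05. With the epithelial score as a covariate, 15 of the 34 members were lower with HFB, the median was 0.02, and 1 member had an unadjusted p under 0.05, Prim1, which was higher. That is 2.94% of the members, and 8.42% of all genes were called in the same fit. What part epithelium has in the members' levels was not tested beyond this fit.

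Of 11 listed erythroid genes, 10 have a row, Hbb had the highest CPM, and all 8 tested were higher with HFB, with a median log2 fold change of 0.89 and 0 with an unadjusted p under 0.05. Their summed level was 10810, 96820, 32080, 31190, 34570 and 31330 CPM in HFB 1 to HFB 6. In the controls, in order of number, it was 13090, 13880, 60020, 9356, 15150 and 14180 CPM. HFB 2 and control 9 were the highest of their diets. Klf1 had under 3 counts in 2 libraries and Epb42 in 4. With an erythroid score as a covariate, chosen after these values were seen, 13 of the 34 members were lower with HFB, 0 had an unadjusted p under 0.05 (1.66% of all genes did), and the median was 0.04. Without HFB 2 and control 9 together, 27 members were lower and 4 had an unadjusted p under 0.05, all of them lower, against 1.76% of all genes. The part of blood in the result was not tested otherwise.

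Lymphoid genes were highest in the libraries with high licensing and fork genes. Of 15 listed, 14 have a row, led by Cd79b, a B cell receptor subunit, and 6 of the 7 tested were higher with HFB, with 0 at an unadjusted p under 0.05. Their summed level was 445, 185.5, 46.0, 37.6, 38.3 and 1367 CPM in HFB 1 to HFB 6, and 52.2, 24.5, 103.5, 66.0, 29.9 and 1367 CPM in the controls in order of number. HFB 6 and control 14 were far above the rest, and they also had the lowest adipocyte sums, 23350 and 18120 CPM against 35860 CPM or more elsewhere. The same libraries had the highest sums of epithelial genes, and of endothelial genes, at 483 and 519 CPM against 270 CPM or less elsewhere. Of the endothelial genes, Pecam1, Tie1 and Emcn were highest in these libraries. Tek was not, and Cdh5 was at its lowest of all libraries in HFB 6, at 2.81 CPM. HFB 1, with 445 CPM of lymphoid genes, had 78.1 CPM of licensing and 254 CPM of fork genes. Markers with under 3 counts in at least 1 library include Cd3e, Cd3d, Cd3g, Cd2, Cd5, Cd8a, Cd79b, Ms4a1 and Ccr7. Without both libraries, 20 of the 34 members were lower with HFB at a median of -0.07, and Ccnb1, Ccnb2 and Kif11 kept an unadjusted p under 0.05, joined by Gins2, which was higher. These 4 are 11.8% of the members, and 4.59% of all genes were called in the same fit. With the lymphoid score as a covariate 27 members were lower, and the part of lymphoid cells was not tested otherwise.

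The germinal centre list was led by Xbp1, which plasma cells use but other secretory cells do too. Of its other genes, Mef2b was under 3 counts in 10 libraries, Mzb1 in 8, and Fcer2 and Cr2 in 6 each. Of the other markers, 9 of 9 skeletal muscle genes tested, led by Acta1, and 7 of 9 macrophage genes, led by Lyz2, were higher with HFB. Of the muscle genes 0 had an unadjusted p under 0.05. Their sum ran from 486 CPM in HFB 1 to 8066 CPM in HFB 6, and from 243 CPM in control 10 to 7869 CPM in control 11. In the macrophage list the complement genes C1qb and C1qc had an unadjusted p under 0.05, both higher, as had 122 of the 9382 genes tested. Of the endothelial genes, led by Pecam1, 4 of 5 tested were lower, as were 7 of 7 fibroblast genes, led by Col3a1, and 5 of 10 adipocyte genes. In each of these lists 0 genes had an unadjusted p under 0.05.

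**Figure D4:**
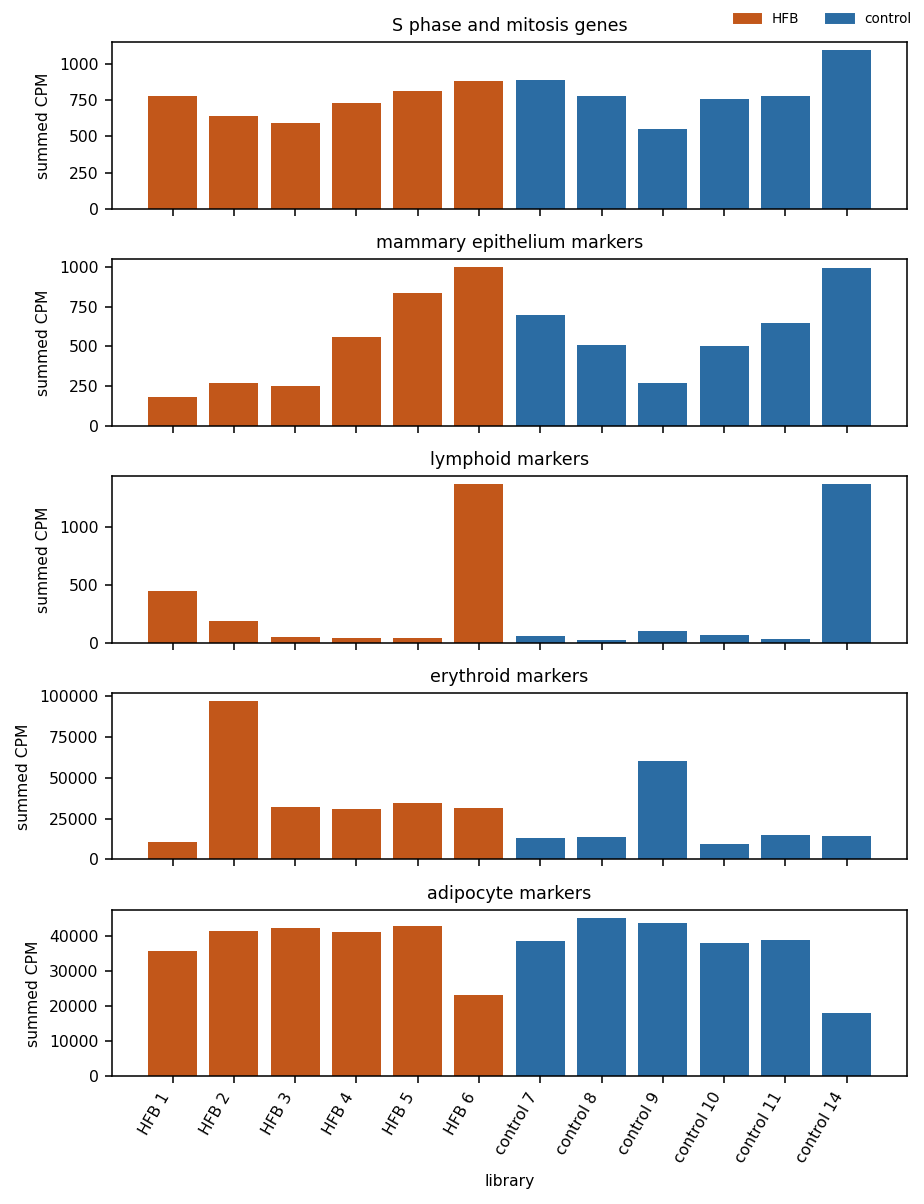
Summed CPM of the S phase and mitosis genes and of 4 marker lists in each library, HFB and control libraries in separate colours, each panel on its own linear axis from 0. Control 14 and HFB 6 are high in lymphoid and low in adipocyte genes, and HFB 2 and control 9 are high in erythroid genes.

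The members varied together within the diets. After the mean of each diet was taken out, the Spearman correlation (rho) over the 12 libraries had a median of 0.43 over the 561 pairs of members, where over all pairs of genes tested it was 0. A rho above 0.7 was found in 15.5% of member pairs, against 4.59% of all pairs of genes. Pairs of mitosis genes had a median of 0.48, pairs of fork genes 0.46, and pairs of a mitosis and a fork gene 0.46. These values describe 12 libraries that share their depth and cell makeup between all genes, and no p is given.

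Ube2c was nearest to the others, with a median rho of 0.69 to the other 33 members, followed by Cdk1 at 0.66. The closest pairs were Ube2c with Cdk1, Ube2c with Aurka and Gmnn with Orc6, each at 0.96. Replication and mitosis genes mixed among close pairs, such as Lig1 with Cdc20 at 0.88 and Prim1 with Kif11 at 0.87. The last pair differs in its diet comparison, as Prim1 had the highest and Kif11 the lowest log2 fold change of the members.

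A few members did not follow the rest. Tyms had a negative rho with 30 of the other 33 members and a median of -0.43, down to -0.78 with Fen1. Pola1 had a median of -0.07, Top2a 0.01, E2f1 0.04 and Bub1 0.06. Tyms, Top2a, Bub1 and Pola1 were positively related to each other, from 0.42 for Top2a with Bub1 to 0.57 for Bub1 with Pola1. All 4 were lower in HFB 6 than the median of the other HFB libraries, with ratios of 0.606, 0.340, 0.830 and 0.589. Some genes outside the members were also at their lowest of all libraries in HFB 6, such as Rpa1 (1.20 CPM) and Tob2 (0.401 CPM). Others, such as Pold1 (71.4 CPM), were at their highest there, and the cause was not tested.

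**Figure D5:**
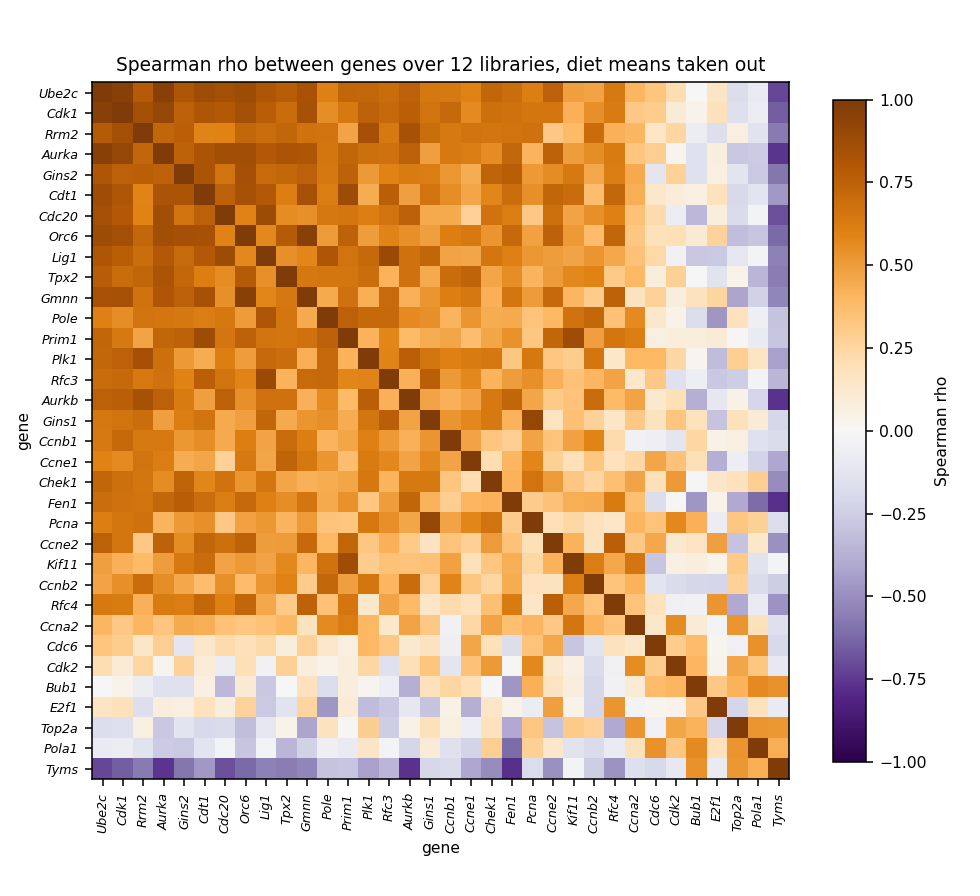
Spearman rho between the 34 genes tested over 12 libraries after the diet means were taken out, genes ordered by their median rho with the others. Most of the square is positive, while Tyms at the lower edge is negative with 30 of the other 33 genes.

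The promoter windows searched here lie on the GRCr8 assembly and run from 250 bases before to 50 after the start of a gene. They number 33469 in all, more than the 16511 genes listed with counts, and cover 28 of the 37 members. The shares over all windows were thus not limited to genes counted or tested here. No window was at hand for Aurkb, Ccna2, Ccne2, Cdc6, E2f1, Orc1, Rrm2, Tpx2 and Ube2c, although their symbols were matched in the RefSeq table. Each window was searched on both strands for the E2f letters TTTGGCGC, TTTCGCGC and TTTCCCGC, for CCAAT, and for the CHR letters TTTGAA and TTCGAA. At least 1 of the E2f words was found in 10 of 28 member windows, or 35.7%, against 1.72% of all windows. Taken singly, TTTGGCGC was in 6, TTTCGCGC in 4 and TTTCCCGC in 2 of the member windows, and in 0.493%, 0.326% and 0.974% of all windows. CCAAT was in 19 of 28, or 67.9% against 37.5%, and a CHR word in 7 of 28, or 25% against 19.7%, with TTTGAA in 5 members (18.3% of all windows) and TTCGAA in 3 (1.69% of all). CCAAT together with a CHR word was in the same 7 members, or 25%, against 7.95% of all windows.

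By role, an E2f word was in 4 of 8 fork windows, 3 of 6 licensing windows and 2 of 6 windows of cyclins and kinases, and in 0 of 6 mitosis windows. A CHR word was in 3 of 6 mitosis windows, 2 of 6 windows of cyclins and kinases, 1 of 8 fork windows and 0 of 6 licensing windows. Nucleotide supply had an E2f word in 1 of 2 windows and a CHR word in 1 of 2. A match describes the letters in the window and no more.

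Shown first are windows of the members with the lowest log2 fold changes, Kif11, Top2a, Ccnb2 and Ccnb1, and of Cdk1, with every searched word in capitals, 5′ to 3′ on the gene's own strand. They lie at chr1:244536617-244536916 (plus strand), chr10:84473044-84473343 (minus strand), chr8:79981609-79981908 (minus strand), chr2:33655176-33655475 (minus strand) and chr20:19265043-19265342 (plus strand).
Kif11: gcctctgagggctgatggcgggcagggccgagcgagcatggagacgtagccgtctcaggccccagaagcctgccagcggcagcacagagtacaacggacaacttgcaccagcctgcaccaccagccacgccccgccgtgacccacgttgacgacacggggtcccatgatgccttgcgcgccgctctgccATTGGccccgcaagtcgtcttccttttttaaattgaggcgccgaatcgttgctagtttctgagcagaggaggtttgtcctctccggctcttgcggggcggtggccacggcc
Top2a: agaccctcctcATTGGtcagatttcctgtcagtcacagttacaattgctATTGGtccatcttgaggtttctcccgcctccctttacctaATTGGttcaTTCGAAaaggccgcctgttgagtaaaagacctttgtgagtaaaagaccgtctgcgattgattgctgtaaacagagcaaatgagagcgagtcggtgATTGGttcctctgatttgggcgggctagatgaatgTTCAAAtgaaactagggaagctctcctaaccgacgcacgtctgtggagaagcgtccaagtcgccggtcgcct
Ccnb2: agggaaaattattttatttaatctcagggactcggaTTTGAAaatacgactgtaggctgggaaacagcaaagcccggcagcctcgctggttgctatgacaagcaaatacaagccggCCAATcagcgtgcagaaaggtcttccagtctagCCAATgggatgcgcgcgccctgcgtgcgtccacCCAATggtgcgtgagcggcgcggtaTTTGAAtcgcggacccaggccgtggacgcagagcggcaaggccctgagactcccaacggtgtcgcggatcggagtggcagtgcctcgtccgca
Ccnb1: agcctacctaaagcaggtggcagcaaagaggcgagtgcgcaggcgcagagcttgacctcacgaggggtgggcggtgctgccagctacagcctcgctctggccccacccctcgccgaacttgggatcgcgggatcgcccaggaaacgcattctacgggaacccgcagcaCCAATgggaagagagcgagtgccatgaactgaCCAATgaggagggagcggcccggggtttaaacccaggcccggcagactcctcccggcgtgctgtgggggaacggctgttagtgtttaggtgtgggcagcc
Cdk1: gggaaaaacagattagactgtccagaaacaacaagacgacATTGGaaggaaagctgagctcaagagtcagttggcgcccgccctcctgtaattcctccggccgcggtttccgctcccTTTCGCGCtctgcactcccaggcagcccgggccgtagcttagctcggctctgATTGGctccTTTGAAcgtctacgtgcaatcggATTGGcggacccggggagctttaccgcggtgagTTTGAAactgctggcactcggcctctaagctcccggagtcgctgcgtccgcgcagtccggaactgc
Ccnb2 has 3 CCAAT and 2 CHR words, Top2a 4 and 2, Cdk1 3 and 2 with an E2f word besides, Ccnb1 2 CCAAT and no CHR word, and Kif11 1 CCAAT.

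Next are Cdt1, Lig1, Pole and Prim1, each highest of its diet in HFB 6 and in control 14, and Tyms, which was low in both. They lie at chr19:67528999-67529298 (plus strand), chr1:83242920-83243219 (plus strand), chr12:52053613-52053912 (minus strand), chr7:1031212-1031511 (plus strand) and chr9:120776034-120776333 (minus strand).
Cdt1: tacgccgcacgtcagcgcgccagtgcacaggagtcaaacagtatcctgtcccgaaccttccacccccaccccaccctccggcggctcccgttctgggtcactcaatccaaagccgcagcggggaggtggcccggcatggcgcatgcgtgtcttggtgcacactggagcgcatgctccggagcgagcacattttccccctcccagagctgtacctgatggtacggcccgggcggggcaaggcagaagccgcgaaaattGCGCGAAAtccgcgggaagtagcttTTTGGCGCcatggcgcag
Lig1: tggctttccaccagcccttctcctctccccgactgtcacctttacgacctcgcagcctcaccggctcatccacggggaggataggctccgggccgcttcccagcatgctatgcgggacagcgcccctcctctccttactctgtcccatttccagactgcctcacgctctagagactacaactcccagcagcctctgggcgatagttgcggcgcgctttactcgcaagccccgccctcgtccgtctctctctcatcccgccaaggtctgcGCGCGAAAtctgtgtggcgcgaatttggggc
Pole: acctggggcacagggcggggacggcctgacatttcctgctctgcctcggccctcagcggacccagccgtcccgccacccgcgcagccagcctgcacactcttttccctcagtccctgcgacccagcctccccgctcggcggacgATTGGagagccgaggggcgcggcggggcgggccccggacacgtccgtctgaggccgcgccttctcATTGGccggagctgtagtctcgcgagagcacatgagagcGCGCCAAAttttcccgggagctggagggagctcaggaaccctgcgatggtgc
Prim1: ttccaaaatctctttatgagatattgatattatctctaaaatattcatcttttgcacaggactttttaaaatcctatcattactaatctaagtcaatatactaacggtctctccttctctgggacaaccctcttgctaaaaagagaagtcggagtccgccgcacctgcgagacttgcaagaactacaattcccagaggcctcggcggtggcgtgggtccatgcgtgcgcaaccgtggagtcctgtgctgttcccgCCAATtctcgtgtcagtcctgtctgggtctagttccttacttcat
Tyms: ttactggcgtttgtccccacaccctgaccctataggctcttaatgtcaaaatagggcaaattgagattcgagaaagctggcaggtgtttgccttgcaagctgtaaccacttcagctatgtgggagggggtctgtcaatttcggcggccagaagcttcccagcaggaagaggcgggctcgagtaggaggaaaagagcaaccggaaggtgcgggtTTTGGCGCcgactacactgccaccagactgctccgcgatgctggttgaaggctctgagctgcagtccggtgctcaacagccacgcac
Cdt1 has 2 E2f words near its start, and Lig1, Pole and Tyms have 1 each, whereas Prim1 has a CCAAT and none of the E2f words. The E2f word of Tyms, TTTGGCGC, is also in the windows of Cdt1 and Pole, and any relation of these words to the levels was not tested.

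Other genes of the same processes were counted in the same way, where 50% of all genes tested were lower and 1.04% were called lower. Of 50 further mitosis genes 41 have a row and 39 were tested, of which 29 were lower with HFB, at a median log2 fold change of -0.27. Without control 14, 27 of the 39 were lower, and with the erythroid score as a covariate 21, at medians of -0.14 and -0.02. Prc1, which bundles the microtubules of the midzone, Cdc25a, the phosphatase that activates the cyclin-dependent kinases, and Cenpf, a kinetochore protein, had an unadjusted p under 0.05, all lower. With the erythroid score as a covariate 0 genes of this list were called, against 1.66% of all genes. The number was also 0 without control 7 or without control 10, against 1.49% of all genes in each fit. It was 1 without HFB 2 (2.36% of all genes), without HFB 3 (1.77%) and with the epithelial score as a covariate (8.42%). It was 4 in limma (6.53%) and without HFB 1 (3.99%), 5 without control 9 (1.9%), and 2 or 3 in the other fits.

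Prc1 was at 20.1, 30.6 and 38.1 CPM with HFB and at 31.7, 39.9 and 50.9 CPM with control, and its log2 fold change was -0.48 (SE 0.19). Cdc25a was at 20.1, 23.0 and 24.9 CPM with HFB and at 23.9, 28.7 and 31.6 CPM with control, at -0.31 (SE 0.13). For both genes all 6 HFB libraries lay below the control median, and the diets overlapped. Cenpf was at 8.19, 14.3 and 19.7 CPM with HFB and at 15.2, 19.65 and 29.7 CPM with control, at -0.58 (SE 0.25).

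Of 30 further S phase genes 26 were tested, and 17 of them were lower with HFB, at a median of -0.10 and with 0 at an unadjusted p under 0.05. Without control 14, 15 were lower, at a median of -0.04. Those nearest to it were Pole2, a subunit of the leading-strand polymerase, at -0.67 (SE 0.34), and Pclaf, a Pcna-binding protein, at -0.48 (SE 0.28). Pole2 had 13.4 CPM in control 14 and at most 6.32 CPM in any other library. Among the 9 genes of the Mcm helicase and its Dbf4-Cdc7 kinase 7 were lower, but 3 without control 14. Dbf4, the kinase's regulatory subunit, was at 3.48, 4.56 and 6.80 CPM with HFB and at 8.01, 9.23 and 10.87 CPM with control. Its diets did not overlap, as in 0.107% of all genes tested, and its log2 fold change was -0.94 (SE 0.22, unadjusted p under 0.05). Mcm10 stood at -0.16 (SE 0.31).

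Of the genes that act before S phase or hold the cycle back, 0 had an unadjusted p under 0.05 in edgeR. Of 3 G1 cyclins and kinases tested 2 were higher, with Cdk4 at 0.26 (SE 0.26) and Ccnd1, cyclin D1, at 0.10 (SE 0.27). Of 10 genes of the Rb, E2f and DREAM complexes 6 were higher, with the histone-binding Rbbp4 at 0.17 (SE 0.12) and Tfdp1, the E2f partner, at -0.15 (SE 0.16). Of 4 inhibitors of cyclin-dependent kinases 3 were lower, among them Cdkn1b, the p27 protein, at -0.25 (SE 0.16), while Cdkn2c stood at 0.18 (SE 0.32). Of 9 genes of quiescence 5 were lower, with Btg1 at -0.20 (SE 0.33) and Txnip at 0.17 (SE 0.24).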

How the data were processed

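The authors deposited raw read counts per gene, listed by Entrez identifier, with 1 column per library. The submitters' processing notes name bcl2fastq, CASAVA 1.8, TopHat, DESeq and the rn4 build, without their roles. Symbols came from the RefSeq table of GRCr8, which matched 16351 of 16511 genes. Counts were fitted with edgeR 4.0.16 in R 4.3.3 (TMM, filterByExpr, quasi-likelihood test, Benjamini-Hochberg over 9382 genes), and CPM use the same scaling. Scores are mean log2 CPM with a prior count of 2. The SE is the log2 fold change over the root of its F. Alternatives were DESeq2 1.42.0, limma 3.58.1 (voom with sample quality weights), other scalings and filters, marker scores as covariates, and fewer libraries; the erythroid covariate and the omission of HFB 2 and control 9 were added after seeing the data, as were alternatives for the further lists.

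Levels by diet are given for Top2a, Pcna, Ccna2, Ccnb1, Cdk1, E2f1 and Rrm2, the 5 members with the smallest unadjusted p, the 2 largest log2 fold changes in each direction and any member whose diets do not overlap. The 2 genes with the smallest p of each further list have a log2 fold change and SE, and the gene with the highest CPM of each marker list is named. Other values were picked after they were seen. The members and lists were chosen with earlier results of these data known. The counting rules and the use of strand are not stated. No transcript lengths were at hand, so levels of different genes are not compared beyond naming the gene with the highest CPM in a list ("led by").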

Additional observations from a re-analysis of the deposited data

Results flagged for a closer look

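The gap of the highest or the lowest library to its nearest neighbour, over the range of its diet, was examined for the 34 genes tested and for their summed levels, in 80 groups of 6 libraries. It was above Dixon's critical value for 6 values in 10 of them. Chance gives about 1 in 20, or 4 in 80, and the groups are not independent.

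Control 14 was far above the other controls in Cdt1 (26.06 CPM, next 11.07), Gins2 (46.84, next 24.36), Fen1 (27.82, next 18.54) and Lig1 (109.5, next 54.73). The same held for the summed level of origin licensing and firing (134.2 CPM, next 79.72). HFB 6 was far above the other HFB libraries in Cdt1 (25.26 CPM, next 13.54) and Lig1 (96.61, next 59.18). In both libraries the summed lymphoid, epithelial and endothelial genes were also the highest of their diets. The part of these cells in this was not tested.

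Control 9 was far below the other controls in Ccna2 (7.391 CPM, next 17.4). HFB 3 was far below the other HFB libraries in Ccnb1 (5.46 CPM, next 10.03), and HFB 2 in Chek1 (3.427 CPM, next 10.02).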

How the results depend on the processing

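No alternative gave a gene with an adjusted p under 0.05. Kif11 and Ccnb2 were lower with HFB under all 23 alternatives and had an unadjusted p under 0.05 in 12 of them each, Ccnb1 in 9 of 23. With 1 library left out at a time, the number of members with an unadjusted p under 0.05 ran from 0 to 6, the number higher with HFB from 4 to 18, and the median log2 fold change from -0.21 to 0.0274.

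With the epithelial score as a covariate, 1 member had an unadjusted p under 0.05, 19 were higher with HFB and the median was 0.0178. With the erythroid score as a covariate, chosen after seeing the data, these values were 0, 21 and 0.0383, and the log2 fold change of Cdk1 was 0.0411. Without control 14 and HFB 6 together 14 members were higher, and that of Pcna was 0.0408. The cause of these changes was not tested. In limma 344 genes lower with HFB had an unadjusted p under 0.05, in edgeR 98. The design text gives 6 litters per diet, and the size of change that could be detected was not tested.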
